A study of Mus musculus with 3008 samples.

Results

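The genes described here are 10 genes of the endoplasmic reticulum (ER) stress and folding machinery, among 23725 genes in a table of transcripts counted in single mouse regulatory T cells (Tregs). They were chosen by symbol as Xbp1, Hspa5, Atf4, Ddit3, Herpud1, Calr, Canx, Pdia3, Hsp90b1 and Sdf2l1, and all 10 were found in the table. Their levels are set beside those of Il10 and Gzmb, which encode the cytokine interleukin-10 and the granule protease granzyme B, both of which enter the ER as they are made. Tregs are CD4+ T cells that carry the transcription factor Foxp3 and restrain immune responses.

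Colon Tregs came from the lamina propria, the layer of the gut wall beneath its epithelium. They made up 2391 of the 3008 cells and formed 2 libraries, called colon 1 (1253246 unique molecular identifiers, or UMIs) and colon 2 (1772 cells and 3916649 UMIs). Spleen Tregs formed 1 library of 1255946 UMIs. All cells came from male B6 mice aged 7 months with a Foxp3-Ires-Gfp reporter, and were sorted as live (DAPI-), TCRb+, CD4+ and GFP+. Colons were digested with collagenase and dispase while spleens were broken up mechanically, so tissue and dissociation cannot be told apart in any comparison of colon with spleen.

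The median cell held 1767 UMIs in colon 1, 2026.5 in colon 2 and 1847 in spleen. Foxp3 was present at 452.4, 306.1 and 281.9 UMIs per 1000000 UMIs of the library (CPM) in colon 1, colon 2 and spleen. The libraries shared 25 of 2983 cell barcodes. The labels call colon 2 a second replicate in the title but rep1b in the sample type, so it is not known whether the colon libraries are separate samples or how far their likeness is technical. No animal is named, so each tissue counts as 1 sample, values are given for each colon library, and no comparison carries a p-value or a standard error. The 95% intervals given with the values cover counting error only. Each colon library is divided by the one spleen library, so the ratios are not independent. Summed RNA cannot tell more cells with a transcript from more transcript per cell. The share of cells is therefore given as well for Hspa5, Hsp90b1, Herpud1, Atf4, Il10 and Gzmb. Over 3482 genes with at least 50 CPM in spleen or in both colon libraries, log2 ratios of colon 2 over colon 1 had a standard deviation of 0.43, which serves as a yardstick for the spread between libraries.

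Proteins that are secreted or placed in membranes fold in the ER, where the chaperone BiP (Hspa5), its HSP90-type partner GRP94 (Hsp90b1), the lectin chaperones calreticulin (Calr) and calnexin (Canx) and the disulfide isomerase ERp57 (Pdia3) act on them. When unfolded protein builds up, 3 sensors signal to the nucleus: IRE1 splices the mRNA of the transcription factor Xbp1, ATF6 is cut to release a transcription factor, and PERK slows translation while favouring that of Atf4. This unfolded protein response raises chaperones and the machinery of ER-associated degradation, in which Herpud1 is a scaffold. Ddit3, also called CHOP, is a late target of ATF4 linked to cell death. The response is best known in lymphocytes from plasma cells, which secrete antibody.

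The promoters of these genes are a textbook case of shared response elements. In the 250 bases before and 50 bases after each RefSeq gene start (build GRCm38.p6), a sequence for all 10 genes was found and searched on both strands for 4 elements. The ER stress response element (ERSE) was searched as CCAAT, any 9 bases and CCACG, and stood in the promoters of 4 of the 10 genes, Hspa5, Calr, Canx and Hsp90b1. It stood in 39 of all 32851 promoters, or 0.119%. ERSE-II, searched as ATTGG, any 1 base and CCACG, stood in Herpud1 among the 10 genes and in 0.0365% of all promoters. The core TGACGTG of the unfolded protein response element stood in Hspa5 and in 2.01% of all promoters. The C/EBP-ATF response element, searched as TGATG, any 1 base and AA, stood in Herpud1 and in 3.97% of all promoters. The other 5 genes, Xbp1, Atf4, Ddit3, Pdia3 and Sdf2l1, held none of these letters in this window, and no 2 matches in the 10 promoters overlapped. The stretches that hold the ERSE matches, and for Herpud1 the ERSE-II and the C/EBP-ATF matches, are shown 5′ to 3′ on the strand of the gene, with the matches in capitals, because the genes with the same element differed in how their levels compared between tissues.
Hspa5, chr2:34771995-34772073, plus strand: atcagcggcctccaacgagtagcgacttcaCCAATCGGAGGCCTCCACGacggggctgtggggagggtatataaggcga
Hsp90b1, chr10:86705503-86705686, minus strand: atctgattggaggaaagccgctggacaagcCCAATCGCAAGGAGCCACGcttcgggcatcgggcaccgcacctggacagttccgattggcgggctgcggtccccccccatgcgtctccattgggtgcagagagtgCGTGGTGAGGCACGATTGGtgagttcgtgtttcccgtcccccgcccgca
Calr, chr8:84847045-84847123, minus strand: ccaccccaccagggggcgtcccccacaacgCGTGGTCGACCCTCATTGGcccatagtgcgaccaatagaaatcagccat
Canx, chr11:50325770-50325848, minus strand: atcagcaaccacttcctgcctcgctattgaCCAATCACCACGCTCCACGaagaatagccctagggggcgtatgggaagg
Herpud1, chr8:94386287-94386417, plus strand: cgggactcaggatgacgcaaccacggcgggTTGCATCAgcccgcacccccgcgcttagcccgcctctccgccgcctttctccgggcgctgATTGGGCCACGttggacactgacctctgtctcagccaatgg
Hspa5 holds 1 ERSE, from 65 to 47 bases before the start. Hsp90b1 holds 2, in opposite directions. Calr holds 1 in the reverse direction and Canx holds 1 in the same direction as Hspa5.

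Colon was compared with spleen to see how the folding machinery of gut Tregs stands beside that of Tregs in a lymphoid organ. Together the 10 genes made up 3331 CPM in colon 1 and 3568 CPM in colon 2, against 1573 CPM in spleen. Levels of 2-fold or more above spleen in both colon libraries were found for 4 of the 10 genes, Hspa5, Atf4, Herpud1 and Hsp90b1, and levels of 2-fold or more below spleen for 0. Over the 3482 eligible genes, 11.7% passed the same threshold upward in both colon libraries and 4.45% downward, and 9 of the 10 genes (all but Ddit3) were eligible. At a threshold of 1.5-fold, Xbp1 and Calr joined the higher genes to make 6 of 10, against a background of 19.5%. The median log2 ratio of the 10 genes was 0.77 in colon 1 and 1.15 in colon 2, beside 0.03 and 0.05 over all eligible genes.

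**Figure D1:**
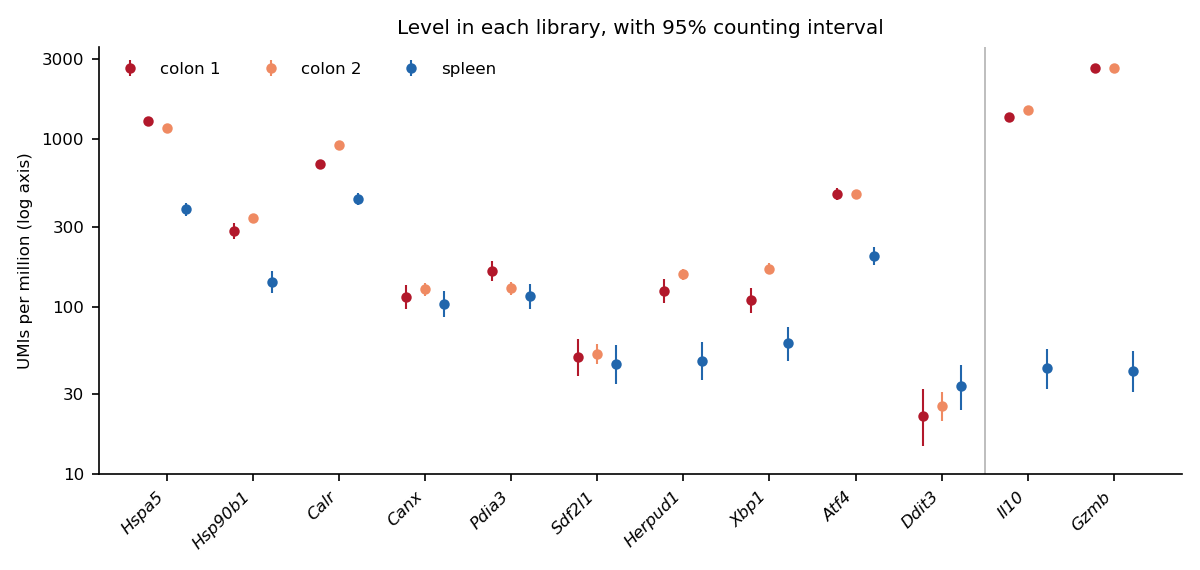
Level of the 10 ER stress and folding genes, and of Il10 and Gzmb to the right of the line, in UMIs per 1000000 on a log axis, with 95% exact Poisson intervals, in colon 1, colon 2 and spleen (1 point per library). Hspa5 lies at 1283.1 and 1168.9 in the colon libraries and 382.98 in spleen, while Canx, Pdia3, Sdf2l1 and Ddit3 lie close together in all 3 libraries.

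The chaperone BiP had the highest ratio of the 10 genes in colon 1, and Herpud1 in colon 2. Hspa5 (chr2:34771970-34777547 in mm10, GENCODE vM21) reached 1283.1 CPM (1221.1 to 1347.4) in colon 1 and 1168.9 CPM (1135.2 to 1203.2) in colon 2, against 382.98 CPM (349.5 to 418.8) in spleen. Both colon libraries were high and their intervals did not overlap that of spleen. Relative to spleen, colon 1 was 3.35 times as high (3.02 to 3.72) and colon 2 was 3.05 times as high (2.78 to 3.36). After each cell was thinned to 1000 UMIs, 50% (46% to 54%) of colon 1 cells and 52.5% (50.1% to 54.8%) of colon 2 cells held an Hspa5 UMI, against 18.9% (15.9% to 22.2%) of spleen cells, so that the difference was spread over many cells. Without thinning the shares were 62.8%, 68.8% and 29.3%. No cell type in these libraries is known to lack these genes, so the share that free RNA alone would give could not be read from them.

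GRP94 showed the same direction with a smaller difference. Hsp90b1 (chr10:86690209-86705509) stood at 283.3 CPM (254.6 to 314.3) in colon 1 and 340.9 CPM (322.8 to 359.6) in colon 2, against 140.1 CPM (120.2 to 162.4) in spleen. The groups did not overlap, and the ratios were 2.02 (1.68 to 2.44) and 2.43 (2.08 to 2.86). The lower ratio sits at the 2-fold threshold. Leaving out cells with more than 3 times the median UMI number, or leaving ribosomal protein genes out of the totals, took it below 2 in at least 1 colon library. After thinning, an Hsp90b1 UMI was held by 18.9% of colon 1 cells and 23.9% of colon 2 cells, against 10.1% of spleen cells.

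The lectin chaperones, which hold glycoproteins until they are folded, differed from each other. Calr (chr8:84841850-84846934) stood at 708.6 CPM (662.7 to 756.7) in colon 1 and 929.1 CPM (899.2 to 959.8) in colon 2, against 441.1 CPM (405.1 to 479.4) in spleen. Both colon values were above spleen, with ratios of 1.61 (1.44 to 1.79) and 2.11 (1.93 to 2.31), and colon 2 was 1.31 times colon 1 (1.22 to 1.41). Canx (chr11:50293961-50325673), which holds the same ERSE as Calr, Hspa5 and Hsp90b1, stood at 114.9 CPM in colon 1 and 127.7 CPM in colon 2, against 104.3 CPM in spleen. Its ratios were 1.10 (0.863 to 1.41) and 1.22 (1.01 to 1.495), and the interval in colon 1 includes no difference.

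The other 2 folding factors were also close in both tissues. Pdia3 (chr2:121413775-121438687), which works with both lectin chaperones, stood at 164.4 CPM in colon 1 and 128.9 CPM in colon 2, against 115.5 CPM in spleen, with ratios of 1.42 (1.15 to 1.77) and 1.12 (0.927 to 1.35). Sdf2l1 (chr16:17130138-17132383), an ER-resident partner of BiP's J-protein cofactors, stood at 50.3 CPM in colon 1 and 52.3 CPM in colon 2, against 45.4 CPM in spleen. Its ratios were 1.11 (0.762 to 1.61) and 1.15 (0.856 to 1.58), and both intervals include no difference.

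Herpud1 (chr8:94386438-94395377), the degradation scaffold, stood at 1.24 UMIs per 10000 in colon 1 and 1.56 in colon 2, against 0.478 in spleen, with intervals of 105.7 to 145.6 CPM, 143.9 to 168.9 CPM and 36.5 to 61.5 CPM. The colon libraries were both above spleen without overlap, by 2.61 (1.92 to 3.57) and 3.27 (2.50 to 4.33). It was found in 8.52% (6.43% to 11.03%) and 11.01% (9.58% to 12.6%) of thinned colon cells, against 3.92% (2.52% to 5.77%) of thinned spleen cells.

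The transcription factors fell into a higher pair and a lower-level gene that did not follow them. Atf4 (chr15:80255184-80257541) stood at 470.8 CPM (433.6 to 510.3) in colon 1 and 470.04 CPM (448.8 to 492.02) in colon 2, against 201.4 CPM (177.4 to 227.85) in spleen. The 2 colon libraries were nearly equal, and the ratios to spleen were 2.34 (2.01 to 2.72) and 2.33 (2.05 to 2.67). After thinning, an Atf4 UMI was held by 29.5% of colon 1 cells and 33.0% of colon 2 cells, against 15.3% of spleen cells. Xbp1 (chr11:5520659-5525893) stood at 109.3 CPM (91.8 to 129.2) in colon 1 and 169.02 CPM (156.4 to 182.4) in colon 2, against 60.5 CPM (47.7 to 75.7) in spleen, with ratios of 1.81 (1.36 to 2.42) and 2.79 (2.20 to 3.59). It differed most between the colon libraries, colon 2 being 1.55 times colon 1 (1.29 to 1.87), a log2 difference of 0.63 beside the standard deviation of 0.43 over all eligible genes. UMI counts per gene do not tell spliced from unspliced Xbp1, nor protein from mRNA for Atf4, which is largely set by translation. Ddit3 stood at 22.3 CPM (28 UMIs) in colon 1 and 25.5 CPM (100 UMIs) in colon 2, against 33.4 CPM (42 UMIs) in spleen. Its intervals overlapped between tissues, with ratios of 0.668 (0.399 to 1.10) and 0.7635 (0.527 to 1.12), both of which include no difference. A second gene record overlaps Ddit3 on the same strand of chromosome 10, so its count is uncertain.

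**Figure D2:**
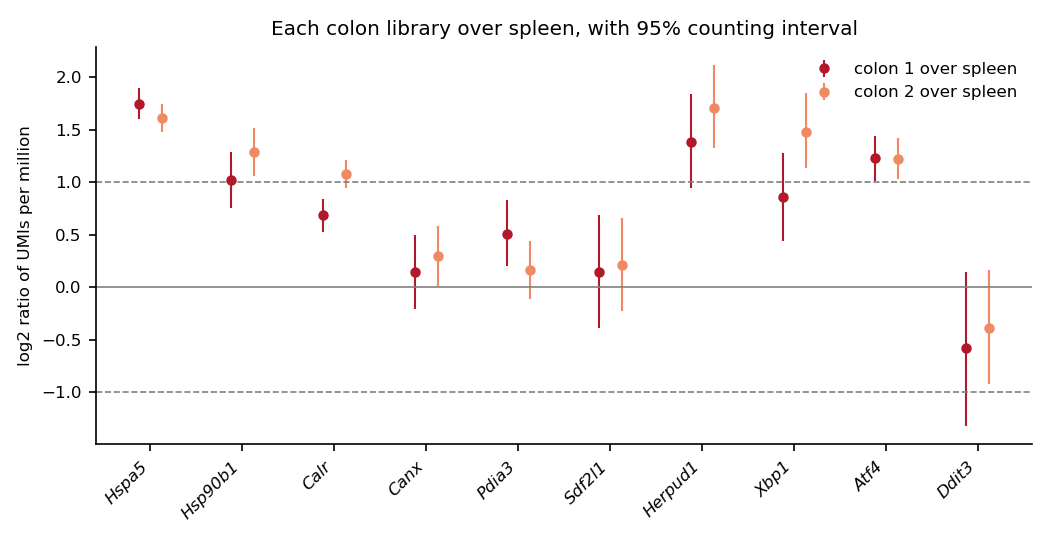
Log2 ratio of each colon library over the spleen library for the 10 genes, with 95% exact conditional binomial intervals; dashed lines mark a 2-fold difference. Hspa5, Atf4, Herpud1 and Hsp90b1 lie above the upper line in both colon libraries, Xbp1 and Calr in colon 2 only, and Ddit3 lies below 0 with intervals that reach it.

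The wider ER machinery was read from lists of genes around the 10, with a gene called measured at 30 UMIs or more over the 3 libraries. Among all 9580 measured genes, 995 were higher and 517 lower by 2-fold or more in each colon library. Of the 27 measured ER chaperones and foldases outside the 10 genes, 3 were at least 2-fold higher and 0 lower, and the median log2 ratio was 0.00 in colon 1 and 0.13 in colon 2. The 3, a share near that of higher genes among all measured genes, were Dnajb9, Ero1l and Manf. Dnajb9, which encodes the BiP cofactor ERdj4, was 7.40 times spleen in colon 1 and 6.71 times in colon 2, at 76.6 and 69.4 CPM in the colon libraries and 10.4 CPM in spleen. Ero1l, the oxidase that drives disulfide formation, was 5.12 and 4.07 times spleen. Manf, a secreted and ER-held protein of the unfolded protein response, stood at 425.3 and 376.1 CPM in the colon libraries and 126.6 CPM in spleen. Other genes of the list varied. Hyou1, a BiP-side chaperone picked here with its value known, stood at 15.96 CPM in colon 1 and 17.4 CPM in colon 2, against 16.7 CPM in spleen. Sil1, a nucleotide exchange factor of BiP picked in the same way, was at 1.29 and 2.52 times spleen on 7 spleen UMIs. Cnpy2, the lowest of the list by the naming rule, was at 0.432 and 0.597 of its spleen level.

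The translocon, through which new chains enter the ER, and the enzymes of signal peptide cleavage and N-glycosylation had 30 measured genes, of which 0 were at least 2-fold higher and 0 lower. Their summed level was 4634 CPM in colon 1 and 4822 CPM in colon 2, against 4132 CPM in spleen. Spcs1, a signal peptidase subunit, was the highest by the naming rule at 1.64 and 1.51 times spleen, and Sec63, a translocon partner of BiP, stood at 0.482 and 0.596 of spleen. ER-associated degradation had 18 measured genes beside Herpud1, of which 1, the retrotranslocation channel gene Derl1, was higher (2.05 and 2.02 times spleen) and 0 were lower. Edem1, which marks glycoproteins for degradation, missed the threshold in 1 library at 2.15 and 1.91 times spleen. The 21 genes of ER exit and return had 2 higher, the cargo receptors Lman1 (2.35 and 2.48 times spleen) and Surf4 (2.21 and 2.32 times spleen), and 0 lower. That share of higher genes is near the 995 of 9580 over all measured genes.

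Among 8 measured sensors of ER stress, 2 were higher and 0 lower, beside 995 higher and 517 lower of all 9580 measured genes. Atf6 stood at 43.1 CPM in colon 1 and 45.96 CPM in colon 2, against 11.9 CPM in spleen, or 3.61 and 3.85 times. Creb3l2, an ATF6-like factor, rested on 8 and 21 UMIs in the colon libraries and 2 UMIs in spleen, with log2 ratios of 2.003 (-0.32 to 5.28) and 1.75 (-0.28 to 4.89). Of 24 measured targets of ATF4 and PERK, 5 were higher and 1 was lower. Slc3a2, a subunit of amino acid transporters, stood at 3.45 and 4.44 times spleen, Ddit4, an inhibitor of mTORC1 signalling, at 3.44 and 3.01 times, the transcription factor Cebpb at 4.50 and 4.22 times, and the death receptor gene Tnfrsf10b at 2.63 and 3.13 times. Atf3, a stress-induced factor, stood at 31.9 and 55.1 CPM in the colon libraries and had 0 UMIs in spleen. With spleen set to a floor of 3 UMIs, its ratio was 13.4 in colon 1 and 23.1 in colon 2. The log2 intervals at that floor were 2.09 to 6.08 and 2.96 to 6.82. The lower gene was the pro-death gene Bbc3, at 0.376 and 0.353 of spleen on 40 spleen UMIs.

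**Figure D3:**
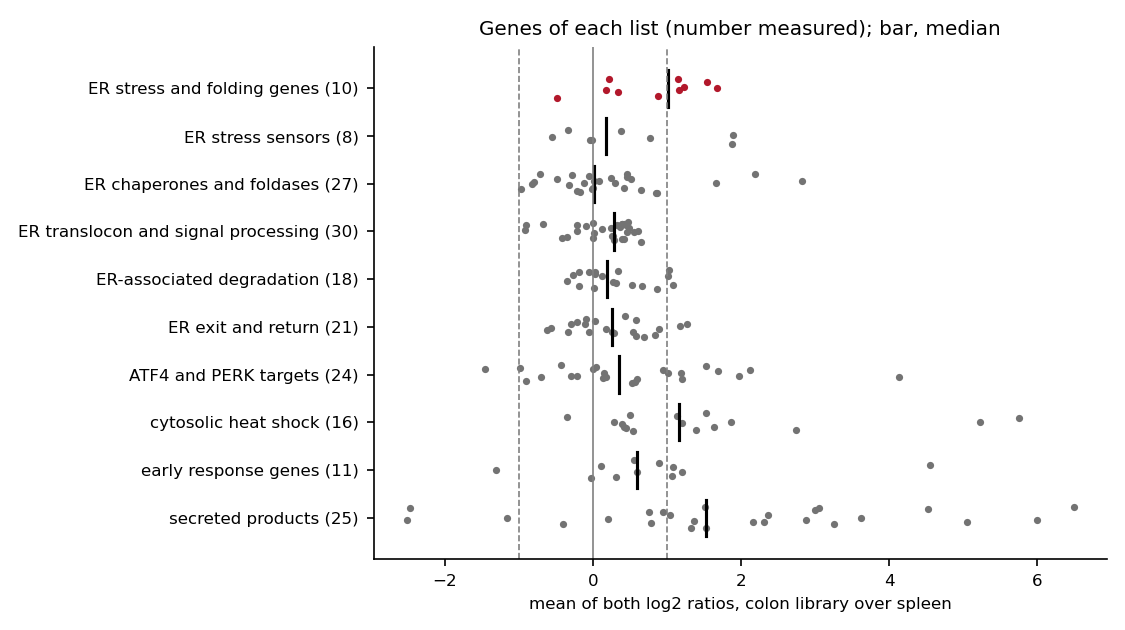
Mean of both log2 ratios (colon 1 and colon 2 over spleen) for each measured gene of each list, with the number of genes in brackets; black bars are medians, dashed lines mark 2-fold, and genes with 0 spleen UMIs are drawn at the ratio to a floor of 3 UMIs. The median of the 10 genes lies near 1, as does that of cytosolic heat shock genes, while the lists of other ER genes have medians between 0 and 0.5.

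Genes of the cytosolic heat shock response moved with the same comparison. Of 16 measured, 9 were higher by 2-fold or more in each colon library and 0 were lower, and their summed level was 4807 CPM in colon 1 and 4994 CPM in colon 2, against 2729 CPM in spleen. Hspa1b stood at 375.03 and 468.3 CPM in the colon libraries and 11.1 CPM in spleen, and Hspa1a had 0 spleen UMIs, although reads of these near-identical copies may be split between them. Early response genes had 11 measured, of which 2 were higher (Fosb at 22.4 and 24.4 times spleen, Junb at 2.17 and 2.45 times) and 1 lower (Zfp36). The background for both lists is 995 higher and 517 lower of all 9580 measured genes. In an alternative chosen after seeing the data, cells with any Hspa1a, Hspa1b or Fosb UMI after thinning were left out together with cells under 1000 UMIs, which removed 28.4% of colon 1 cells and 30.98% of colon 2 cells, against 1.78% of spleen cells. In the remaining cells the mean log2 ratio of both colon libraries was 1.604 for Hspa5, 1.202 for Atf4, 1.35 for Herpud1 and 1.10 for Hsp90b1, against 1.68, 1.22, 1.54 and 1.15 in all cells. Hsp90b1 then missed 2-fold in at least 1 colon library.

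Plasma cells share high levels of this machinery, so their markers were read in the same libraries. Of 13 listed markers 7 were in the table and 3 were measured. The listed immunoglobulin genes were not in the table. The summed level of the 7 was 117.3 CPM in colon 1 and 99.6 CPM in colon 2, against 69.3 CPM in spleen. The defining marker Jchain had 14 and 19 UMIs in the colon libraries and 0 in spleen, Mzb1 had 1 UMI in colon 1 and 0 in the other libraries, and Tnfrsf17 had 0 in all 3. Prdm1, which Tregs also express, made up 84.6 CPM in colon 1 and 73.8 CPM in colon 2, against 35.03 CPM in spleen. The other measured marker, Txndc5, went the other way, at 15.96 and 19.4 CPM in the colon libraries and 31.1 CPM in spleen. A filter left out cells with at least 1 plasma cell marker UMI and at least 2 UMIs of plasma or B cell markers together. Cells with a single such UMI stayed in. Most plasma cell marker UMIs were of Prdm1 or Txndc5, so the filter cannot separate plasma cells from Tregs that hold these UMIs. It removed 5.65% of colon 1 cells, 6.09% of colon 2 cells and 4.38% of spleen cells. The same 4 of 10 genes passed 2-fold again, and the mean log2 ratio of Hspa5 was 1.74. The mean log2 ratio of Gzmb was then 6.71, beside 6.002 in all cells. Macrophage or dendritic cell markers summed to 247.4 CPM in colon 1 and 246.1 CPM in colon 2, against 106.7 CPM in spleen. Most of that sum was Cst3, at 221.03 and 199.2 CPM in the colon libraries and 101.9 CPM in spleen. Apoe had 9 and 64 UMIs in the colon libraries and 0 in spleen, Lyz1 had 6 and 28 and 1, C1qb had 0 and 17 and 0, and Csf1r had 0 in all 3. The part of these cells in the results was not tested beyond the removal of marker-holding cells given below. B cell markers summed to 0.710, 1.08 and 0.709 UMIs per 10000, granulocyte or mast cell markers to 24.7, 16.1 and 7.17 CPM, colon epithelium markers to 41.5, 72 and 56.5 CPM, stroma or endothelium markers to 71.0, 60 and 107.5 CPM, and CD8 or NK cell markers to 130.9, 103.7 and 83.6 CPM in colon 1, colon 2 and spleen. Most of the B cell sum was Cd74, at 39.1 and 61.5 CPM in the colon libraries and 50.96 CPM in spleen. Of the other measured B cell markers, H2-Eb1 had 24 and 71 UMIs in the colon libraries and 1 in spleen. H2-Aa had 7 and 77 UMIs in the colon libraries and 2 in spleen. Erythroid or platelet markers made up at most 3.19 CPM. Without cells holding 2 different markers of 1 such cell type, which were 17, 49 and 8 cells, the same 4 genes passed 2-fold. CD8 or NK cell markers were not part of that filter.

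Il10 and Gzmb gave the setting of secretory load. Il10 stood at 1361 CPM in colon 1 and 1499.5 CPM in colon 2, against 43.0 CPM in spleen, and Gzmb at 2647 CPM in colon 1 and 2659 CPM in colon 2, against 41.4 CPM in spleen. After thinning, 49.7% (45.6% to 53.7%) of colon 1 cells and 46.8% (44.5% to 49.2%) of colon 2 cells held an Il10 UMI, against 1.47% (0.673% to 2.77%) of spleen cells. For Gzmb the shares were 48.2% (44.2% to 52.2%) and 47.1% (44.7% to 49.4%), against 1.96% (1.02% to 3.40%). Across a wider list of secreted products, 15 of 25 measured genes were higher and 3 were lower in both colon libraries, among them Mmp9 at 205.1 CPM and 225.96 CPM, against 2.39 CPM in spleen (3 UMIs), which makes log2 ratios of 6.42 (4.86 to 8.71) and 6.56 (5.01 to 8.84), and Metrnl at 25.6 and 20.8 times spleen. The lower genes were Lta, Ltb and Ccl5. Among all 9580 measured genes, 995 were higher and 517 lower. Colon cells could therefore be split by each product into groups of nearly equal size without use of the 10 genes.

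The question of that split is whether colon cells that hold the mRNA of a secreted product also hold more of the folding machinery. Il10-positive cells were those with at least 1 Il10 UMI after thinning, in the shares given above. Before thinning, 58.8% of colon 1 cells and 58.2% of colon 2 cells held an Il10 UMI, so some Il10-negative cells held Il10 mRNA. The median UMI number of Il10-positive cells was 1721 in colon 1, against 1848 in Il10-negative cells. In colon 2 it was 2034, within 1% of that of Il10-negative cells. The 10 genes summed to 3357 CPM in Il10-positive and 3326 CPM in Il10-negative cells of colon 1, a ratio of 1.01 (0.949 to 1.07), and to 3646 and 3511 CPM in colon 2, a ratio of 1.04 (1.004 to 1.07). With a threshold of 1.5-fold in both colon libraries, 0 of the 10 genes were higher and 0 lower in Il10-positive cells, against 1.49% and 1.23% of 3017 eligible genes. No test was run here, so there is no adjusted or unadjusted p.

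Hspa5 stood at 1328.5 CPM in Il10-positive and 1241.3 CPM in Il10-negative cells of colon 1, and at 1205.9 and 1140.6 CPM in colon 2. The ratios were 1.07 (0.969 to 1.18) and 1.06 (0.997 to 1.12), and both intervals include no difference. Atf4 stood at 489.4 CPM in Il10-positive and 460.03 CPM in Il10-negative cells of colon 1 and at 496.3 and 447.9 CPM in colon 2, with ratios of 1.06 (0.902 to 1.25) and 1.11 (1.01 to 1.22). Some genes went opposite ways in the 2 libraries. Xbp1 was at 0.597 (0.410 to 0.858) of its Il10-negative level in colon 1 and at 1.12 (0.963 to 1.31) in colon 2, and Pdia3 at 1.26 (0.948 to 1.68) and 0.803 (0.669 to 0.963).

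Gzmb gave a similar picture, with 1 smaller exception. Without thinning, 52.3% of colon 1 cells and 52.7% of colon 2 cells held a Gzmb UMI, so some Gzmb-negative cells held Gzmb mRNA. The 10 genes summed to 3368 CPM in Gzmb-positive and 3322 CPM in Gzmb-negative cells of colon 1, a ratio of 1.01 (0.954 to 1.08), and to 3729 and 3441 CPM in colon 2, a ratio of 1.08 (1.05 to 1.12). Again 0 of the 10 genes were at least 1.5-fold higher and 0 lower in both libraries, against 1.77% and 1.81% of 3045 eligible genes. Hspa5 stood at 1266.7 CPM in Gzmb-positive and 1299.4 CPM in Gzmb-negative cells of colon 1, and at 1291.8 and 1064.3 CPM in colon 2, with ratios of 0.975 (0.882 to 1.08) and 1.21 (1.14 to 1.29). Its interval excludes no difference in colon 2 and includes it in colon 1. Sdf2l1, the BiP partner, was nearest to the threshold, at 63.6 CPM in Gzmb-positive and 38.8 CPM in Gzmb-negative cells of colon 1 and at 63.2 and 43.0 CPM in colon 2. Its ratios were 1.64 (0.964 to 2.83), on 63 UMIs in all, and 1.47 (1.10 to 1.96). It passed the threshold in both libraries under 3 of the alternatives.

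**Figure D4:**
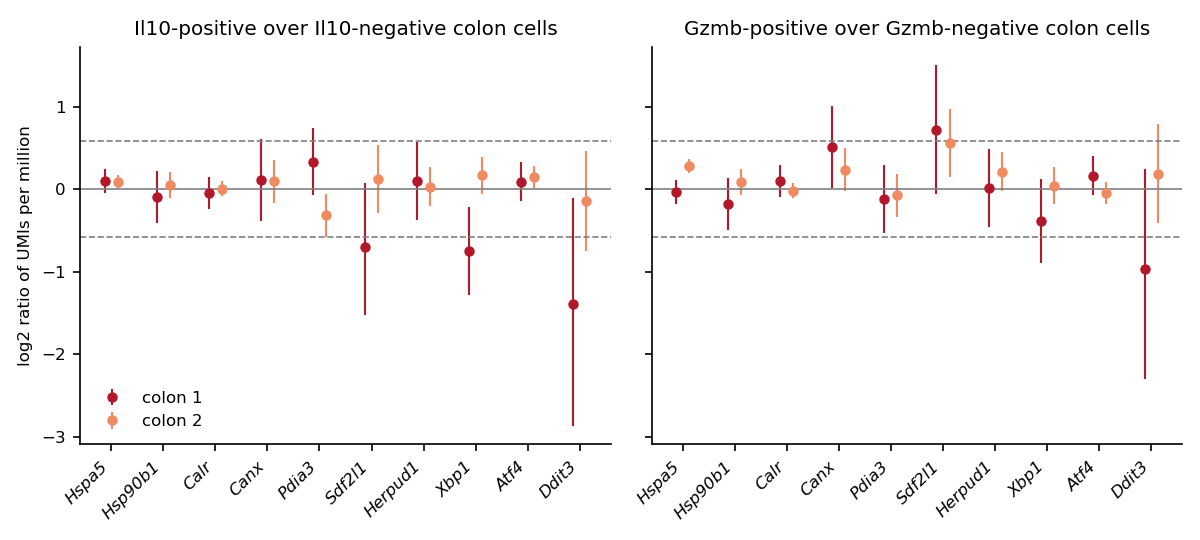
Log2 ratio of each of the 10 genes in Il10-positive over Il10-negative colon cells (left) and in Gzmb-positive over Gzmb-negative colon cells (right), by colon library, with 95% exact conditional binomial intervals; dashed lines mark 1.5-fold. Most points lie between the dashed lines; Sdf2l1 lies near the upper line in both libraries on the right.

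The products went with each other more than with the 10 genes. Gzmb stood at 3662 CPM in Il10-positive and 1790 CPM in Il10-negative cells of colon 1, and at 3644 and 1857 CPM in colon 2, ratios of 2.05 and 1.96. By both products together, the 10 genes summed in colon 1 to 3567 CPM in cells with both, 3076 CPM with Il10 only, 3110 CPM with Gzmb only and 3468 CPM with neither. In colon 2 the same classes stood at 3768, 3490, 3691 and 3421 CPM. Cells with both had the highest value in each library, but their interval overlapped that of the next class. In colon 1 the intervals were 3370.4 to 3772.0 CPM with both and 3290.2 to 3653.2 CPM with neither. In colon 2 they were 3653.5 to 3886.0 CPM with both and 3555.2 to 3831.3 CPM with Gzmb only. The order of the other classes differed between the libraries. The wider lists were also near 1: the summed level of translocon genes was 4540 CPM in Il10-positive and 4726 CPM in Il10-negative cells of colon 1, and 4780 and 4877 CPM in colon 2. Among the other ER lists, Mia3 (ER exit) by Il10 was the gene that reached 1.5-fold in both libraries, and Ddit4 (ATF4 and PERK targets) by Gzmb.

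Cells were clustered without the 10 genes, Il10, Gzmb and the listed pathway genes, so that levels in clusters do not follow from how these were made. Of 6 clusters, cluster 0 held 97.6% of spleen cells, with 13 colon 1 cells and 20 colon 2 cells, and had Id3, Nsg2, Tcf7 and Evl among its leading genes, as in resting lymphoid-organ T cells. Colon cells fell mainly in clusters 1 (Tmem176b, Emp1, Rcbtb2, Clic4 and Havcr2), 3 (Dgat2, Pxdc1, Il1rl1, Penk and Cxcl2, GATA3-ST2 Treg-like) and 4 (Hey1, Ccr7, Tbc1d4, Fam101b and Tubb2a), with smaller clusters 2 (Ccl4, Iigp1, Tbx21, Ifit1 and Cxcl10) and 5 (Ccna2, Nuf2, Cdca3 and Uhrf1 among its leading genes, dividing-cell-like). No doublet caller was run, and the cells of cluster 5 held a median of 5269 UMIs.

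Hspa5 varied between clusters of colon cells. It was highest in cluster 3, at 1847.8 CPM (1706.1 to 1998.1) in colon 1 and 1494.3 CPM (1424.5 to 1566.6) in colon 2, and stood at 1018.5 and 1039.6 CPM in cluster 1. Cluster 4, with the T cell zone receptor gene Ccr7, had 1195.3 and 1014.7 CPM. Over the 4 clusters with at least 30 cells of each colon library, the highest was 1.81 times the lowest in colon 1 and 1.47 times in colon 2. Early response genes were also highest in cluster 3 among the colon clusters, at 7185 and 8856 CPM summed, against 5833 and 6203 CPM in cluster 1, and their part in the Hspa5 difference was not tested. At a finer resolution, with 8 clusters, the spread of Hspa5 was 3.55 times in colon 1 and 2.50 times in colon 2.

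The other genes differed in whether they were highest where Hspa5 was. Over the same 4 clusters of colon 1, Herpud1 (170.7 CPM), Pdia3 (200.1 CPM) and Sdf2l1 (64.7 CPM) were highest in cluster 3, as Hspa5 was. In colon 2 their highest clusters were cluster 1 for Herpud1 (178.1 CPM) and Sdf2l1 (66.5 CPM) and cluster 2 for Pdia3 (165.4 CPM). Atf4 was level, from 399.4 to 476.7 CPM in colon 1 and from 455.4 to 527.9 CPM in colon 2 over the same 4 clusters. Calr ranged from 641.4 to 798.9 CPM in colon 1 and from 887.01 to 983.97 CPM in colon 2, and it was lowest in cluster 3, where Hspa5 was highest. Hsp90b1 was highest in cluster 5, at 503.4 and 615.4 CPM on 14 and 28 cells, and among clusters 1 to 5 it was lowest in cluster 3 of colon 1 (220.7 CPM) and cluster 4 of colon 2 (231.9 CPM). Among clusters 1 to 5, Xbp1 was highest in cluster 4 of both libraries, at 150.7 and 227.4 CPM. Il10 was highest in cluster 1, at 1757 and 1780 CPM among clusters 1 to 5, where Hspa5 was below its level in cluster 3.

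**Figure D5:**
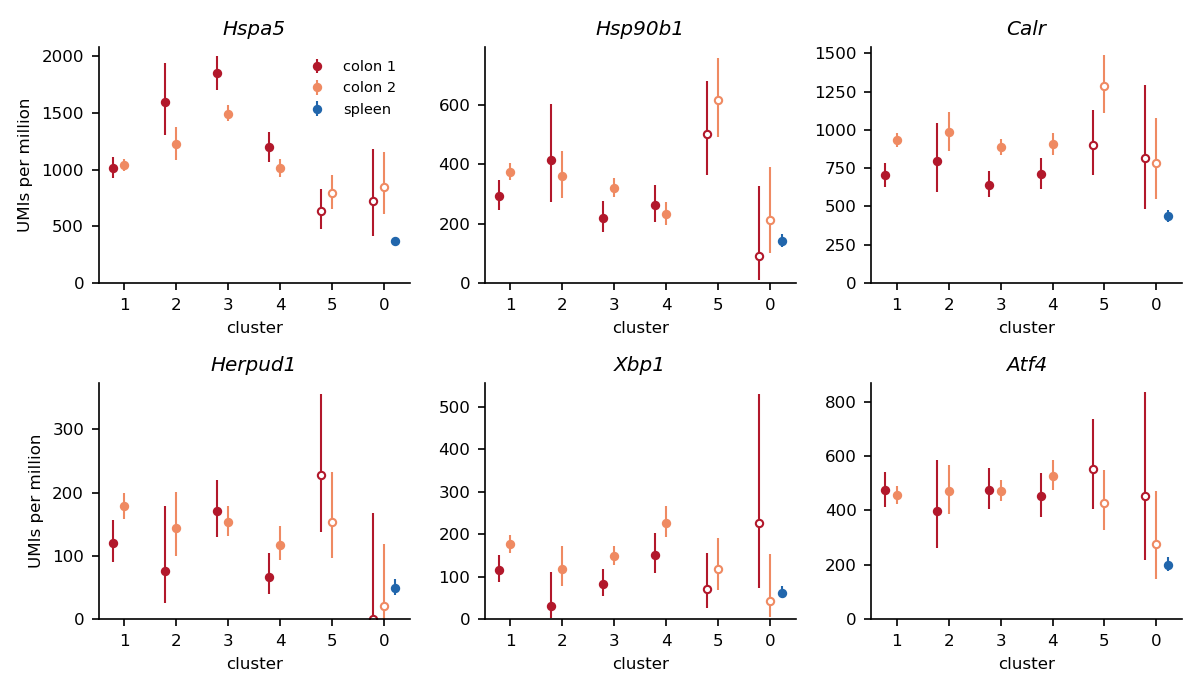
Level of 6 of the 10 genes, in UMIs per 1000000 with 95% exact Poisson intervals, in cells of colon 1, colon 2 and spleen by cluster; open points rest on fewer than 30 cells. Cluster 3 holds the highest Hspa5 in both colon libraries, Atf4 is level across colon clusters, and spleen cells (cluster 0) lie below clusters 1 to 5 for all 6 genes except Xbp1 in cluster 2 of colon 1.

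The few colon cells that clustered with spleen cells allow a comparison within 1 cluster. Whether they are the same kind of cell as the spleen cells was not tested. Their GATA3-ST2 Treg genes summed to 952.99 CPM in colon 1 and 1229.1 CPM in colon 2, against 1687.9 CPM in spleen. Over the whole spleen library most of that sum was Ikzf2 (766.8 CPM) and Nrp1 (324.9 CPM), so it does not rank the cells by likeness to GATA3-ST2 Tregs. Genes of resting lymphoid-organ T cells summed to 3448.9 and 3475.4 CPM, against 2782.5 CPM in spleen. Those of dividing cells summed to 1270.6 and 868.9 CPM, against 648.95 CPM in spleen. In cluster 0, Hspa5 stood at 726.1 CPM (415.02 to 1179.1, 16 UMIs) in colon 1 and 847.7 CPM (605.6 to 1154.3, 40 UMIs) in colon 2, against 368.5 CPM (334.98 to 404.4) in spleen. Both colon values lie above the spleen interval, on 13 and 20 cells. The 10 genes summed to 2768 CPM in colon 1 and 2607 CPM in colon 2, against 1548 CPM in spleen, and the cytosolic heat shock genes to 5446 and 5828 CPM, against 2699 CPM. In the same cells Il10 had 0 UMIs in colon 1 and 1 in colon 2, and so did Gzmb. These colon cells thus carried almost none of either product. The part of cell kind or of either product in the Hspa5 difference was not tested. Herpud1, with 0 UMIs in colon 1 and 1 in colon 2, against 60 in spleen, was too shallow for a comparison.

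Across single cells the 10 genes hardly went together. No gene with at least 300 colon UMIs, among 2791, reached a correlation of 0.2 with any of the 10 genes in both colon libraries. The nearest for Calr was Hspa5, with r = 0.15 over the cells of colon 1 and 0.11 over the 1772 cells of colon 2, and for Hsp90b1 it was Calr, at 0.09 and 0.11. Hspa5 with Il10 gave -0.03 in colon 1 and 0.00 in colon 2. Il10 with Gzmb gave 0.24 in colon 1 and 0.30 in colon 2. All pairs share depth and library, and the part of sparse counts in the low correlations was not tested.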

How the data were processed

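The authors deposited raw UMI counts, with a row for each gene and a column for each cell. Per the submitters' processing notes, TopHat2, SAMtools and the mm10 build were used; what each tool did, the annotation and how UMIs were collapsed and cells picked were not stated in the labels. Libraries are those of the labels, with 0 columns left out. The count of reads behind a UMI was not used.

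The counts of all cells in a library were added up and expressed per 1000000 UMIs (CPM), and each colon library was divided by spleen. Poisson, conditional binomial and Clopper-Pearson intervals are exact, at 95% (scipy 1.17.1). Counts come from the 3′ ends of transcripts in this method, so no division by length was made and levels are not compared between genes. A library with 0 UMIs of a gene was set to 3 UMIs for a ratio. For shares and for the splits by Il10 or Gzmb, cells were thinned to 1000 UMIs with a fixed seed, which left out 9, 28 and 4 cells of colon 1, colon 2 and spleen, and the product was left out of the totals. Clusters were made in scanpy 1.11.5 with 2000 variable genes, 20 components, 15 neighbours and Leiden resolution 0.8. The ratio and its interval were tested on simulated counts.

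The 10 genes, the gene lists and the thresholds were chosen with earlier results of these data known. From each list, up to 3 highest and 3 lowest measured genes were named by the smaller log2 ratio of both colon libraries. Genes most like a member needed a correlation of 0.2 in both colon libraries and 300 UMIs, and the 5 leading genes of a cluster 100 CPM; a leading gene of clusters 0 and 5 each is not reported here. Alternatives were edgeR 4.0.16 TMM scaling, median of ratios, other totals, filters on cells and single libraries. Promoters are those of RefSeq, build GRCm38.p6, and gene positions those of GENCODE vM21 on mm10.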

Additional observations from a re-analysis of the deposited data

How the results depend on the processing

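The count of 4 genes at least 2-fold higher in colon stayed between 3 and 6 under 11 alternatives, and 0 genes were lower in any of them. It was 3 (without Hsp90b1) with totals that leave out ribosomal protein genes, which took 16.2% and 15.1% of UMIs in colon 1 and colon 2, against 26.5% in spleen. Under that scaling the eligible genes had a median log2 ratio of -0.18, with 9.45% higher and 6.89% lower. The mean log2 ratio was then 0.95 for Hsp90b1 and 0.97 for Xbp1, and that of Sdf2l1 was -0.02, where 0.18 was found with all genes in the totals. With 1 colon library at a time the count was 4 for colon 1 and 6 for colon 2. Over all eligible genes, 13.1% were then higher with colon 1 alone and 15.3% with colon 2 alone. All 110 alternative ratios of the 10 genes between tissues, and all 140 between cells, lay within the range that the counting intervals of both colon libraries span together, which those from a single library do by construction. Sdf2l1 made the count of genes higher in Gzmb-positive cells 1 without thinning, with levels from thinned counts and without cells above 3 times the median UMI number. With 1 colon library at a time, 0 to 3 genes were lower in Il10-positive cells, 0 to 1 higher and 0 to 1 lower in Gzmb-positive cells. The share over all genes was not computed for these single-library splits, so their counts have no background. At Leiden resolution 1.2 the mean spread of Hspa5 over clusters was 3.03 times, against 1.64 times at 0.8. Without ribosomal protein genes in the totals, higher genes were 0 for ER-associated degradation and 1 each for ER exit and early response genes. With a minimum of 100 UMIs, 1 sensor was higher and 0 ATF4 and PERK targets were lower. With 1 colon library at a time, higher genes were 2 to 3 for ER-associated degradation, 6 to 8 for ATF4 and PERK targets and 2 to 4 for early response genes, and lower genes 2 to 4 for ATF4 and PERK targets, 0 to 2 for other ER chaperones, 0 to 2 for the translocon and 0 to 1 for ER exit. The shares over all eligible genes were larger too, with 6.67% lower for colon 1 alone and 7.36% for colon 2 alone, beside 4.45% with both. The lists count measured genes instead, and the share over all measured genes was not computed under these alternatives. The cause of these shifts in the list counts was not tested. No paired analysis was possible because the labels name no animal and spleen is 1 library. Depth limits Ddit3, Sdf2l1 and genes under 50 CPM most.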

Other observations

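In spleen cells, the correlation of Hspa5 with Calr across cells was 0.25, beside 0.15 in colon 1 and 0.11 in colon 2. Calr with Sdf2l1 stood at 0.14 in spleen, beside 0.03 and 0.04 in the colon libraries. These pairs share depth and library, and the difference between tissues was not tested. Single cells held at most 26 Hspa5 UMIs in either colon library and at most 12 in spleen, and at most 16 and 29 Calr UMIs in colon 1 and colon 2, against 14 in spleen. In spleen, 1 cell held 8 of the 57 Sdf2l1 UMIs.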
